A study of Mus musculus with 7 samples.

Results

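Neural stem cells that mouse fibroblasts had formed under the reprogramming factors Oct4, Sox2, Klf4 and Myc (OSKM) were compared by whether they carried a Nanog reporter trace. The comparison used every gene that reached 2 RPKM (a read density that corrects for exon length and sequencing depth) in the Tomato-positive or the Tomato-negative library, 15323 of the 29686 genes with a value in the exon table. Both libraries came from mechanically subcloned neural stem cells of strain B6/129, grown without feeder cells, from a cross of a Rosa26-TdTomato B6 female with a Col1a-OSKM 129 male, so the reporter and the inducible factors were shared by both. The number of subclones and the passage are not given in the sources used here. The other 5 libraries of the series served as references. They were embryonic fibroblasts (MEF) and induced pluripotent stem cells (iPSC) of strain A12 (Mbd3 flox/-), sorted Tomato-positive cells after 6 days of doxycycline and 4OHT on the B6/129 background, brain neural stem cells (NSC) of BDF2 embryos cultured with bFGF and EGF at 20 ng/mL each (embryonic stage E12.5 in one label and E13.5 in another), and v6.5 embryonic stem cells (ESC). The labels name MEF feeders for ESC, and for iPSC with question marks, so fibroblast transcripts in those libraries can come from the feeders. Each group was 1 library. A difference therefore has no replicate error and no test, and clone, passage, culture and reporter status cannot be told apart.

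In this tracing system a recombinase made from the Nanog locus is active only in the presence of tamoxifen (4OHT) and then switches on tdTomato for good. Tomato-positive neural cells thus descend from cells that expressed Nanog while 4OHT was present, and Tomato-negative cells may descend from cells that did not or that escaped recombination. Nanog is a transcription factor of naive pluripotency that neural stem cells do not normally express. Neural stem cells in culture express Sox2, Nes, Fabp7 and Olig2 and keep the glial program of radial glia, whereas fibroblasts make collagen matrix and keep the Hox code of the body level they came from.

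Most genes stood at like levels in the 2 libraries. Of the tested genes 12983 (84.7%) lay within 2-fold of each other, and the median log2 ratio of Tomato-positive over Tomato-negative, with 1 RPKM added to each, was 0.19. A total of 425 genes (2.77% of those tested) were at least 4-fold higher in the Tomato-positive library and 135 (0.881%) at least 4-fold lower. At 2-fold, which was used for gene lists, the counts were 1497 (9.77%) higher and 843 (5.5%) lower. Most fibroblast matrix genes were higher in the Tomato-positive library, and 8 of 16 tested astrocyte genes were at least 2-fold lower. A list member that reached the floor in 1 library alone had to be low in the other, so counts and medians over tested members describe the lists and support nothing further. The depth recovered from the steps of the values was 19 M reads (M, megareads) for the Tomato-positive library and 42 M for the Tomato-negative library.

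The scaling between the libraries bears on the balance of the counts. Scaling both to the same summed RPKM moved the median from 0.19 to −0.23 and the counts to 313 higher and 262 lower, which put the higher share of such genes at 54.4% in place of 75.9%. Median-of-ratios scaling gave a median of 0.02, 372 higher and 178 lower. Of 38 lists with at least 3 tested members, 12 changed the sign of their median under one of these scalings, all with medians within 0.42 of zero as deposited. No direction is given below for the median of such a list.

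**Figure D1:**
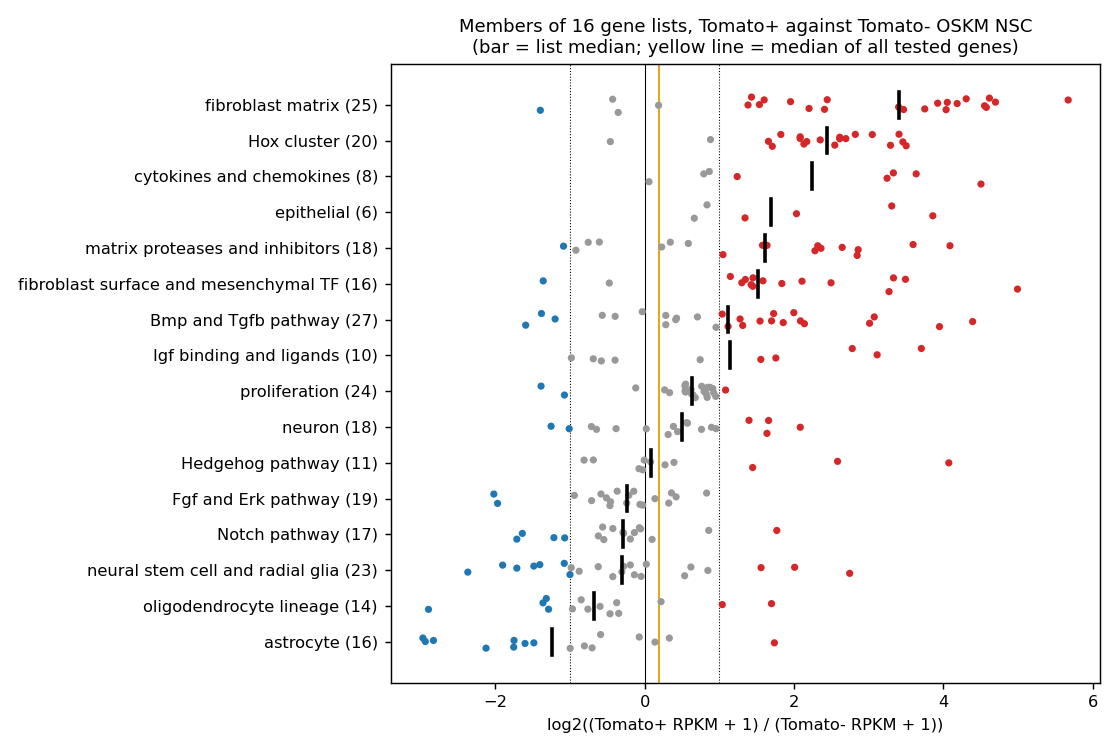
Log2 ratio of Tomato-positive over Tomato-negative OSKM NSC (1 RPKM added) for the tested members of 16 gene lists, 1 point per gene, with the number tested in brackets. Red points are at least 2-fold higher and blue points at least 2-fold lower, and black bars are list medians, from 3.40 for fibroblast matrix to −1.24 for astrocyte genes, beside 0.19 for all tested genes (yellow line).

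Promoter sequence was a feature that the choice of genes did not use. The windows ran from 250 bases before to 50 bases after the gene start in RefSeq (GRCm38.p6), with 1 entry per gene, for 10169 of the 15316 tested symbols. The median number of CG pairs in 300 bases was 21 over all tested genes, 8 over 284 genes at least 4-fold higher and 10 over 92 genes at least 4-fold lower. Windows with 5 or fewer CG made up 9.87%, 34.5% and 37.0%. The letters TATAAA, searched on both strands, were in 6.91%, 19.7% and 9.78%. Without genes with even exon reads (defined beside the keratin genes) the median for the higher genes was 10, and that for the lower genes also rose. Windows with 5 or fewer CG then made up 31.2% of the higher and 29.5% of the lower genes. TATAAA was then in 17.4% of the higher genes and 6.41% of the lower genes, the latter under the 6.91% of all tested genes. The 4 promoters below are of genes described later and show CG-poor and CG-rich windows on each side, with CG in capitals. Col3a1 (chr1:45311288-45311587, plus strand, 0 CG) and Nkx6-1 (chr5:101664662-101664961, minus strand, 40 CG) were higher in the Tomato-positive library. Slc1a3 (chr15:8710758-8711057, minus strand, 3 CG) and Bcan (chr3:88000307-88000606, minus strand, 24 CG) were lower. Col3a1 and Slc1a3 hold TATAAA, and the match is a description only.
Col3a1: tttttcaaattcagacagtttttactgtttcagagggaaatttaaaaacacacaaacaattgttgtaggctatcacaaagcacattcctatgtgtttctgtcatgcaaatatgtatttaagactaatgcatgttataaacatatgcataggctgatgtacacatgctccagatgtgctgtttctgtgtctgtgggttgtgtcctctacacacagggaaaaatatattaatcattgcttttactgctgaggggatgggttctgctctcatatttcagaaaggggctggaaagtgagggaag
Nkx6-1: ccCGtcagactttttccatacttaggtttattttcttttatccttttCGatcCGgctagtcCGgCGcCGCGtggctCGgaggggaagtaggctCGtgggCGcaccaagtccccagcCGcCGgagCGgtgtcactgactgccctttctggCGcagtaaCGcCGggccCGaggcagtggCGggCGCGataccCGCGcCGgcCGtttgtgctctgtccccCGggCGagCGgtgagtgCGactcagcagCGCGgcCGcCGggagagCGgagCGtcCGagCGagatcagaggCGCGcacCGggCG
Slc1a3: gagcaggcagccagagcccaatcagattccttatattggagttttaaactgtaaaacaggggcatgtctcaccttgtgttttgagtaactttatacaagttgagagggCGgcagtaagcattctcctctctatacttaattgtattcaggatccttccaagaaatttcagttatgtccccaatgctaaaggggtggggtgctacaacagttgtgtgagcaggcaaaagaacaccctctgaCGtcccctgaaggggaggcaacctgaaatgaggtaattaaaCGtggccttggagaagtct
Bcan: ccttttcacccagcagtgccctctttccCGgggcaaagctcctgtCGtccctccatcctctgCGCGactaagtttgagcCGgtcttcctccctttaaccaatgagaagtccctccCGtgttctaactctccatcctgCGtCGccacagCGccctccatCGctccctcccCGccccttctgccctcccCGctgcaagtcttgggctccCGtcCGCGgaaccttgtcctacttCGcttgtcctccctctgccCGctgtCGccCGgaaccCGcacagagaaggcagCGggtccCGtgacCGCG

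Nanog itself and the introduced factors were examined first. Nanog (ENSMUSG00000012396, chromosome 6, 122707489 to 122714633, mm10) stood at 5.27 RPKM in the Tomato-positive and 1.37 RPKM in the Tomato-negative library, far under the 772 RPKM of iPSC and 67.2 RPKM on day 6. The tdTomato transcript was not analysed here, so the Tomato label of the 2 libraries has no direct check. None of the 4 reprogramming factors passed 2-fold: Pou5f1 stood at 3.13 and 1.32 RPKM, Sox2 at 116 and 120, Klf4 at 3.52 and 4.97, and Myc at 90.5 and 68.5. Of 17 naive pluripotency genes only 4 were tested, with Nanog and Klf5 higher and Nr5a2, a nuclear receptor that binds the Oct4 promoter, lower at 1.72 against 10.4 RPKM. Of 15 general pluripotency genes 4 were tested, of which 1 was lower and 3 were higher. The higher ones, Lefty1, Lin28b and Dnmt3b, stood at 2.70, 3.03 and 6.62 RPKM against 0.118, 0.269 and 2.28. These levels lie near the floor of the comparison.

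Fibroblast matrix genes gave the largest shift among the lists with more than 10 tested members. Of 25 members, all tested, 21 were at least 2-fold higher in the Tomato-positive library, 1 was lower, and the median log2 ratio was 3.40. Thbs2, which encodes the matricellular protein thrombospondin 2 (chromosome 17, 14665500 to 14694235), stood at 87.9 RPKM against 0.746 RPKM, and the 95% counting interval of its read ratio was 102 to 137. The collagen VI chain genes Col6a1, Col6a2 and Col6a3 stood at 415, 216 and 152 RPKM against 16.5, 8.25 and 5.23 RPKM. All 51 exons of Col3a1, a fibrillar collagen gene, that reached the floor were higher in the Tomato-positive library, and the gene stood at 810 against 43.7 RPKM. The small proteoglycan genes Bgn, Dcn and Lum stood at 268, 317 and 151 RPKM against 9.38, 18.4 and 9.01. The periostin gene Postn stood at 223 against 10.4 RPKM and the fibronectin gene Fn1 at 338 against 24.2. The exceptions were Sparc at 938 against 825 RPKM, Fbln2 and Fbln5, which were within 2-fold, and the elastin gene Eln, which was lower at 7.39 against 21.1 RPKM.

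The matrix genes of the Tomato-positive library did not stand in the proportions of the MEF library. As a share of the MEF level they ran from 0.477% for Eln to 97.8% for Lum, with a median of 10.4%. Col1a1 and Col1a2, the chains of collagen I (the transgene label names the Col1a locus), stood at 123 and 171 RPKM, or 1.35% and 1.68% of MEF, while Col6a3, Dcn and Lum stood at 81.2%, 84.7% and 97.8%. In the Tomato-negative library the median share was 1.36%. All 25 members were at or above the 2 RPKM floor in the Tomato-positive library and 21 in the Tomato-negative library, against 8 in brain NSC, and their summed level was 4777, 1318 and 949 RPKM in these libraries and 51998 RPKM in MEF. In bulk RNA, a few cells of a type and less RNA per cell cannot be told apart. Markers of leukocytes, which the MEF library held at a summed 6442 RPKM with 19 of 19 genes at the floor, summed to 35.2 RPKM in the Tomato-positive library with 5 of 19 at the floor and Itgam at 0, and to 16.5 RPKM in the Tomato-negative library with 3 of 19 at the floor and Cd53, Itgam, S100a8 and S100a9 at 0. Lyz2, the lysozyme gene of macrophages, stood at 9.06 against 0.150 RPKM, and the part of such cells in the matrix values was not tested.

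Genes of mesenchymal identity followed the matrix genes. Of 16 tested surface and transcription factor genes 14 were higher and 1 was lower (median 1.52). Thy1, a fibroblast surface glycoprotein gene, stood at 89.3 against 15 RPKM, the receptor gene Pdgfrb at 22.5 against 1.34, and Cd34 at 59.8 against 4.41. The transcription factor genes Snai1 and Twist1 stood at 15 and 22.3 RPKM against 0.661 and 4.42. Zeb1 was the exception at 98.9 against 255 RPKM, and brain NSC held it at 318 RPKM. Of 7 tested contractile genes 3 were higher (1 at equal summed RPKM), among them Tpm2 at 31.7 against 4.49 RPKM, and Acta2, smooth muscle actin, stood at 30.1 against 18.9. Of 18 tested genes for matrix proteases and their inhibitors 11 were higher and 1 lower (median 1.61; 4 lower at equal summed RPKM), including the urokinase receptor gene Plaur at 25.9 against 0.582 RPKM, the gelatinase gene Mmp2 at 178 against 33.8 and Timp1 at 169 against 13.1. Mmp15, expressed in brain NSC at 188 RPKM, was the lower one at 86.9 against 186 RPKM. The summed level of the protease and inhibitor list was 3501 against 5182 RPKM. Of 10 tested genes in the insulin-like growth factor list 5 were higher and none lower (3 lower at equal summed RPKM). Igfbp1, a binding protein gene that is not on this list, was lower with a log2 ratio of −3.46. Igf2 stood at 98.8 RPKM, a log2 ratio of 2.78, and Igfbp7 at 119 against 8.18, but the summed level of the list was 2441 against 3210 RPKM. Of 18 tested imprinted genes 6 were higher and 1 lower, with H19 and Dlk1 at 471 and 58.7 RPKM against 76.5 and 2.84. In all, 23 of 29 tested collagen genes were at least 2-fold higher and none lower (median 2.25), a family grouped after its values were seen.

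**Figure D2:**
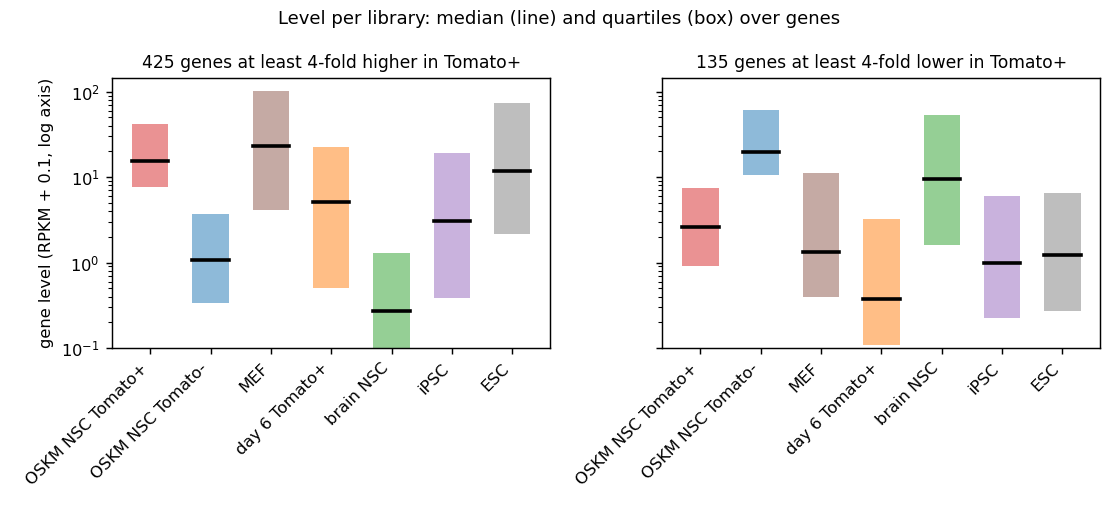
Level in each of the 7 libraries (RPKM with 0.1 added, log axis) of the 425 genes at least 4-fold higher and the 135 genes at least 4-fold lower in Tomato-positive OSKM NSC; lines are medians and boxes quartiles over genes. The genes chosen as higher have medians of 23.4 RPKM in MEF and 0.169 in brain NSC, and those chosen as lower have medians of 1.22 in MEF and 9.37 in brain NSC.

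The genes past 4-fold were then followed in the 5 libraries that did not enter the ratio. Of the 425 higher genes 246 (57.9%) had MEF as the highest of these libraries, 77 had ESC, 73 day 6, 19 iPSC and 10 brain NSC. Over all tested genes MEF was the highest for 19.6% and brain NSC for 29.6%. Of the 135 lower genes 81 had brain NSC as the highest, 23 MEF, 13 ESC, 13 iPSC and 5 day 6. Across 14656 genes the Tomato-positive to Tomato-negative ratio correlated with the MEF to brain NSC ratio at Pearson r 0.603 and Spearman rho 0.553. It is a description over genes, which are not independent, between pairs that share no library. Over protein-coding genes both ratios fell with transcript length, at Spearman's rho −0.37 and −0.27. The part of length in the correlation was not tested.

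Hox genes, which encode the homeodomain factors of position along the body axis, were measured in 39 members and tested in 20. All 20 had reached the floor in the Tomato-positive library and 2 in the Tomato-negative library, so the floor largely set the direction. Of the 20, 18 were at least 2-fold higher in the Tomato-positive library (median 2.45). Hoxa7 (chromosome 6, 52214491 to 52221854) stood at 10.5 RPKM against 0.0190, Hoxb2 at 19.6 against 0.947 and Hoxb3 at 11.9 against 0.557. Hoxb8, Hoxb9, Hoxb6, Hoxa9, Hoxa10 and Hoxa6 stood at 8.79, 9.98, 5.47, 5.11, 3.50 and 4.10 RPKM with no read in the Tomato-negative library. Members of all 4 clusters were among the higher genes, including Hoxc6 at 5.39 against 0.0452 RPKM and Hoxd8 at 4.26 against 0.245. Hoxa2 was within 2-fold at 23.4 against 12.3 RPKM. Over all 39 members the median level was 2.58 RPKM in the Tomato-positive library, 0 in the Tomato-negative library and 4.71 in MEF. Brain NSC had Hoxb9 at 15.1 RPKM, Hoxa5 at 14.9 and Hoxa4 at 10.1, but Hoxb2, Hoxb3 and Hoxb7 at 0.182, 0.36 and 0.0574. The Tomato-negative library was the one with the fewest Hox genes at the floor, 2 of 39, against 20 in Tomato-positive, 32 in MEF, 14 in brain NSC, 12 on day 6, 5 in iPSC and 7 in ESC.

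**Figure D3:**
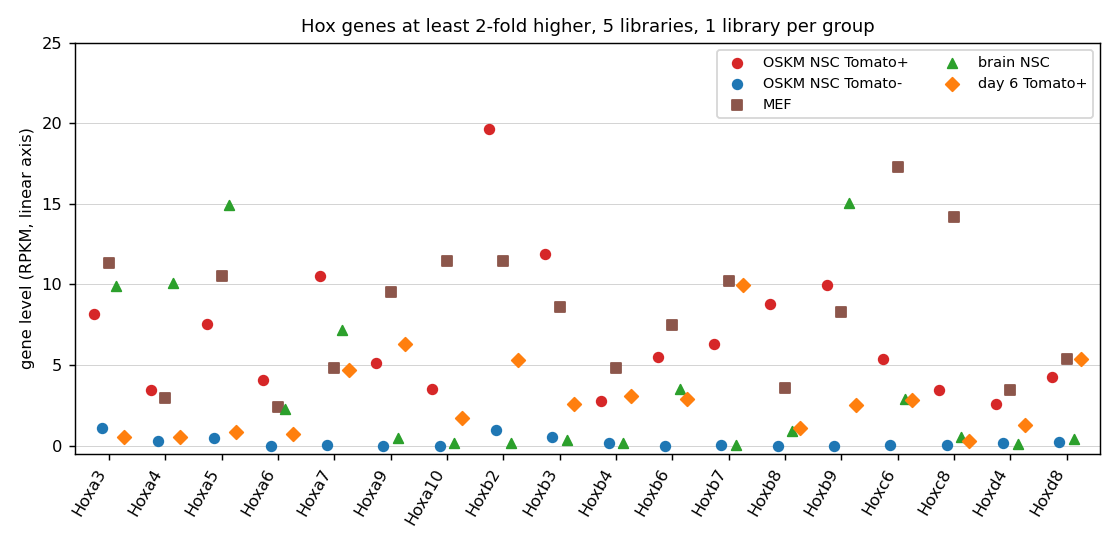
RPKM on a linear axis of the 18 Hox genes at least 2-fold higher in Tomato-positive OSKM NSC, in 5 libraries, 1 point per library. The Tomato-negative points lie at or under 1.10 RPKM, while the Tomato-positive points lie between 2.58 and 19.6 RPKM.

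Signalling genes were described by role. Of 27 tested genes of the Bmp and Tgfb pathway 15 were higher and 3 lower (median 1.12). At equal summed RPKM 11 of 26 were higher and 3 lower (median 0.79). Among ligands Bmp5 stood at 11.1 against 0.436 RPKM and Tgfb1 at 13.0 against 0.733, while Bmp7 was lower at 33.4 against 88.7. The receptor genes Bmpr1b and Bmpr2 were lower at 6.52 and 30.5 RPKM against 21.7 and 71.4. Commonly used target genes were higher, with Tgfbi at 247 against 10.8 RPKM, Ccn2 at 125 against 7.15, Id1 at 101 against 24.6 and Id2 at 308 against 127. Of 8 tested cytokine and chemokine genes 5 were higher and none lower, led by Spp1, which encodes the secreted phosphoprotein osteopontin, at 1985 against 86.6 RPKM, followed by Ccl7, Il33 and Ccl2 at 27.7, 140 and 92.1 RPKM against 1.31, 13.0 and 8.82. Ifitm3 and Ifitm1, interferon-induced membrane protein genes, stood at 255 and 56.2 RPKM against 28.2 and 8.96.

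The hedgehog ligand gene Shh (chromosome 5, 28456815 to 28467256) stood at 38.3 RPKM in the Tomato-positive and 1.34 RPKM in the Tomato-negative library, and at 0.0967 RPKM or less in every other library. The 95% counting interval of the read ratio was 24.4 to 33.9. Gli1, a target of the pathway, stood at 8.05 against 0.512 RPKM. In all, 3 of 11 tested pathway genes were at least 2-fold higher and 8 within 2-fold (at equal summed RPKM 2 were lower), including the receptor and target gene Ptch1 at 54.3 against 51.4 RPKM and Smo at 92.2 against 97.4. Among regional transcription factor genes Nkx6-1 stood at 14.8 against 0.125 RPKM, Foxa2 at 7.48 against 0.727 and Lmx1a at 8.65 against 0.491. Of the 17 tested midbrain, hindbrain and spinal genes 7 were higher and 3, Dbx2, Gbx2 and En2, lower, but at equal summed RPKM the counts turned to 3 higher and 5 lower, and after length centring to 3 and 4. Of 11 tested forebrain genes 3 (Dlx2, Dlx1 and Nr2f2) were higher and 5 lower, with Lhx2 at 0.950 against 13.1 RPKM and Otx1 at 0.403 against 2.79.

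A set chosen after the values were seen holds 31 genes at least 4-fold higher in the Tomato-positive library than in each of the 6 others. Besides Shh, Nkx6-1 and Foxa2 it holds the brachyury gene T, a T-box factor of mesoderm and notochord, at 115 RPKM against 12.6 in the Tomato-negative library and 1.27 or less elsewhere. Foxa1 stood at 10.6 against 0.568 RPKM, the link protein gene Hapln1 at 15.9 against 0.338, the retinoic acid synthesis gene Aldh1a3 at 82.6 against 2.07 and the lipocalin gene Apod at 330 against 39.8. Emcn and Cdh5, genes of endothelial surface proteins, stood at 13.0 and 4.22 RPKM against 0.626 and 0.113. The 13 endothelial and pericyte markers summed to 43.6 against 11.1 RPKM, with 5 and 1 at the floor, and the part of such cells was not tested. Col2a1, the cartilage and notochord collagen gene, was not in the set because MEF held it at 119 RPKM, but stood at 268 against 3.27 RPKM. Noto, a notochord transcription factor gene, had no read in the Tomato-positive library. The mirrored set for the Tomato-negative library holds 11 genes, among them Cd93 at 110 against 5.43 RPKM, Igfbp1 at 11.5 against 0.138, Cacna2d3, a calcium channel subunit gene, at 20.1 against 0.984 and Pla2g7 at 268 against 53.9.

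On the other side, glial genes were lower in the Tomato-positive library. Of 16 tested astrocyte genes 8 were at least 2-fold lower and 1 higher (median −1.24). The GABA transporter gene Slc6a11 stood at 40.4 against 323 RPKM, and at 792 RPKM in brain NSC. The glutamate transporter genes Slc1a2 and Slc1a3 stood at 1.92 and 232 RPKM against 21.4 and 650. Apoe, the lipid carrier gene, stood at 19.8 against 147 RPKM, the water channel gene Aqp4 at 0.768 against 6.71, Gfap at 1.21 against 6.45 and S100b at 3.55 against 12.8. Clu was the higher one at 43.5 against 12.4 RPKM, and Gja1, Fgfr3 and Aldoc were within 2-fold.

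The neural stem cell list split. Of 23 tested genes 7 were lower, 3 higher and 13 within 2-fold. At equal summed RPKM 10 were lower and 3 higher, and with median-of-ratios scaling 9 and 3. The lower ones were Ednrb, the endothelin receptor B gene, at 44.2 against 232 RPKM, Ptprz1, a receptor phosphatase gene of radial glia, at 249 against 935, the Notch target gene Hes5 at 6.16 against 22.5, Slc1a3, Sox3, Gpm6b and Nes, the nestin gene, at 225 against 451. The higher ones were Hopx at 86.4 against 12.0 RPKM, Prom1 at 29.5 against 6.60 and Fgfbp3 at 18.0 against 5.46. Among the genes within 2-fold Sox1 stood at 8.15 against 8.02 RPKM, Notch1 at 59.2 against 67.8, Sox9 at 27.4 against 34.1 and Fabp7, the radial glia fatty acid binding protein gene, at 6511 against 8761. Of 17 tested Notch pathway genes 4 (Hes5, Dtx1, Dll1 and Dll4) were lower and 1, Heyl, higher. Of 14 tested oligodendrocyte lineage genes 4 were lower and 2 higher (7 and 1 at equal summed RPKM, 6 and 1 with median-of-ratios scaling), with the proteoglycan genes Bcan and Ncan at 65.8 and 79.5 RPKM against 496 and 200. Olig1 and Olig2 were within 2-fold at 372 and 262 RPKM against 730 and 474. Cldn11 was among the higher ones, with a log2 ratio of 1.70. The receptor gene Egfr, for a growth factor used in neural stem cell media, stood at 24.0 against 100 RPKM.

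Among the lowest 15 named genes were the potassium channel gene Kcna2 at 1.82 against 77.8 RPKM, the adrenomedullin gene Adm at 10.7 against 139, the transferrin gene Trf at 3.29 against 44.3, and Luzp2 at 9.77 against 101. Brain NSC held Kcna2 at 54.0 RPKM and Luzp2 at 137. Among the 15 highest, beside Thbs2 and Col2a1, were Anxa1, an annexin gene, at 265 against 3.91 RPKM and the prolactin family genes Prl2c2 and Prl2c3 at 83.2 and 76.7 against 0.722 and 0.507, whose near-identical copies make the split of their reads uncertain. Another 9 of the 15 were type II keratin genes (Krt74, annotated as a pseudogene, was left out by the naming rule), which are described apart because of how their reads lay on the exons.

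Reads across the type II keratin cluster on chromosome 15 did not follow exon length. In the Tomato-positive library every one of the 9 exons of Krt71, from 35 to 760 bases long, held 262 reads after rounding to whole reads, and so did every exon of Krt74 and 8 of 9 exons of Krt72. Each of the 9 exons of Krt77 held 208 reads. On day 6 the exons of Krt71 held 134 reads each, and the Tomato-negative library had 0 reads on them. The alignments were not analysed here, and the cause of the equal counts was not tested. Krt6a and Krt6b, at 127 and 134 RPKM against 0.2 and 0.0851, and Krt5, at 75.8 RPKM with no read in the Tomato-negative library, lie in the same run with 467 to 778, 549 to 747 and 287 to 405 reads per exon. The epithelial keratin genes Krt8 and Krt18 had uneven reads and stood at 57.8 and 34.8 RPKM against 3.05 and 2.62, while Epcam and Cdh1 stood at 4.08 and 2.19 RPKM against 2.21 and 0.791. The type I genes Krt14, Krt17 and Krt19 stood at 38.5, 26.9 and 40.6 RPKM against 1.85, 0.798 and 9.17. Of the 21 epithelial markers 6 were tested and 4 were at least 2-fold higher, with a summed level of 152 against 25.3 RPKM and 2409 RPKM on day 6. The part of epithelial cells in these values was not tested.

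**Figure D4:**
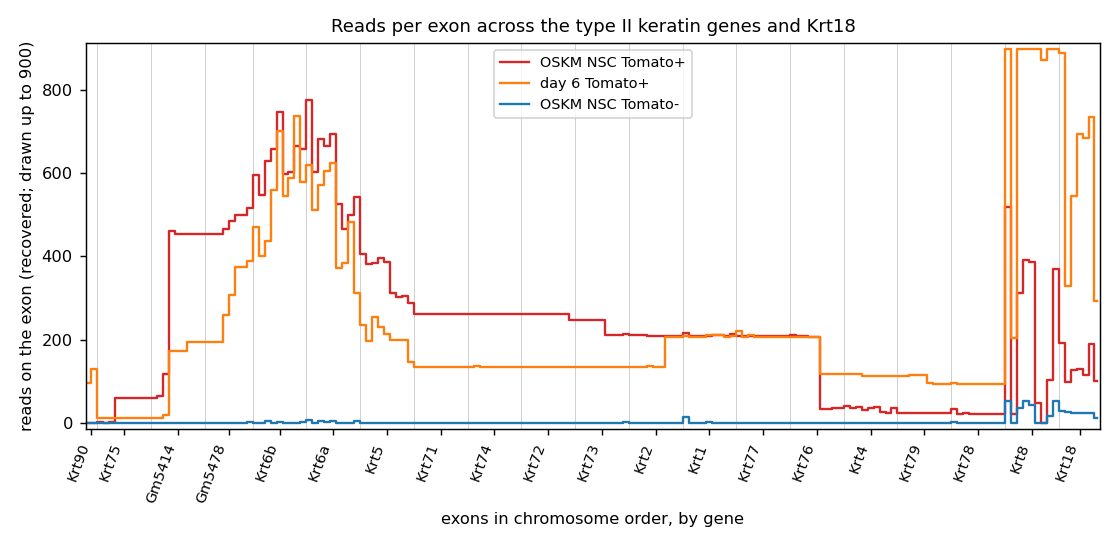
Reads recovered on each exon (vertical axis, drawn up to 900) of the type II keratin genes and Krt18 in chromosome order for 3 libraries. The Tomato-positive line runs flat at 262 reads through Krt71 and Krt74 and at 208 through Krt77; the Tomato-negative line stays at or near 0 up to Krt8.

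A gene was marked as having even exon reads by its reads in the library with the higher level. It needed at least 3 exons, at least 20 reads on the highest exon and exons differing at least 2-fold in length. The mark was given where the lowest exon held at least 0.7 of the reads of the highest. It was also given where at least 50% of neighbouring exon pairs held counts within 2% of each other. Such pairs held at least 20 reads on each exon and differed at least 1.2-fold in length, and at least 3 were needed. Genes with no exon at 20 reads could not be marked. The mark fell on 47 of the 425 higher genes (11.1%), 19 of the 135 lower genes (14.1%) and 268 of all tested genes (1.75%). Among them were Krt1, Krt2, Krt5, Krt6b, Krt71, Krt72, Krt73, Krt74 and Krt77, and also Ly6a, Loxl1, Myh4 and Atp1a4. Atp1a4 held 1298 reads on 5 of its 23 exons in the Tomato-negative library. Without the marked genes 378 were higher and 116 lower.

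Most cell cycle genes lay within 2-fold, as most tested genes did. Of 24 tested proliferation genes 21 were within 2-fold, beside 84.7% of all tested genes. The list median was 0.64 beside 0.19 for all tested genes, and 0.43 beside 0 after centring on genes of like length. The mitotic kinase gene Cdk1 was higher at 273 against 128 RPKM but under 2-fold with both other scalings, the cyclin genes Ccnd1 and Ccnd2 were lower at 334 and 339 RPKM against 876 and 716, and Mki67 stood at 116 against 126. Of 24 tested glycolysis and hypoxia genes 4 were higher, among them the lactate dehydrogenase gene Ldha at 1390 against 539 RPKM, and 2 lower, the growth factor gene Vegfa at 62.2 against 136 and Adm. At equal summed RPKM 0 were higher and 2 lower. Of 24 tested Wnt pathway genes 5 were higher and 5 lower: the inhibitor genes Wif1 and Apcdd1 stood at 13.7 and 35.0 RPKM against 0.900 and 7.18, and the target gene Axin2 and the ligand gene Wnt7b at 8.99 and 5.07 against 21.0 and 15.4. Of 13 genes of the Mbd3 and NuRD repressor complex only the remodeller gene Chd3 passed 2-fold, at 24.6 against 6.47 RPKM.

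The ratio also moved with transcript length. In 10 classes of tested genes ordered by length the median log2 ratio went from 0.46 in the class up to 678 bases and 0.52 in the next to −0.29 in the class from 6473 bases, and Spearman's rho over all tested genes was −0.34. Over the 12732 protein-coding genes rho was −0.37 for this pair. For the ratio of a reference library to Tomato-negative it was −0.25 for iPSC, −0.24 for ESC, −0.23 for MEF, −0.12 for day 6 and 0.09 for brain NSC. After each gene was centred on genes of like length 349 were at least 4-fold higher and 191 lower, and the medians were 3.26 for fibroblast matrix, 2.05 for Hox and −1.36 for astrocyte genes. The part of RNA quality in the trend was not tested. The 81 cytosolic ribosomal protein genes, grouped after their values were seen, were all above 0 as deposited (median 0.84, range 0.40 to 2.39). At equal summed RPKM 79 were above and 2 below 0. After length centring 78 were above and 3 below, with a median of 0.41.

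**Figure D5:**
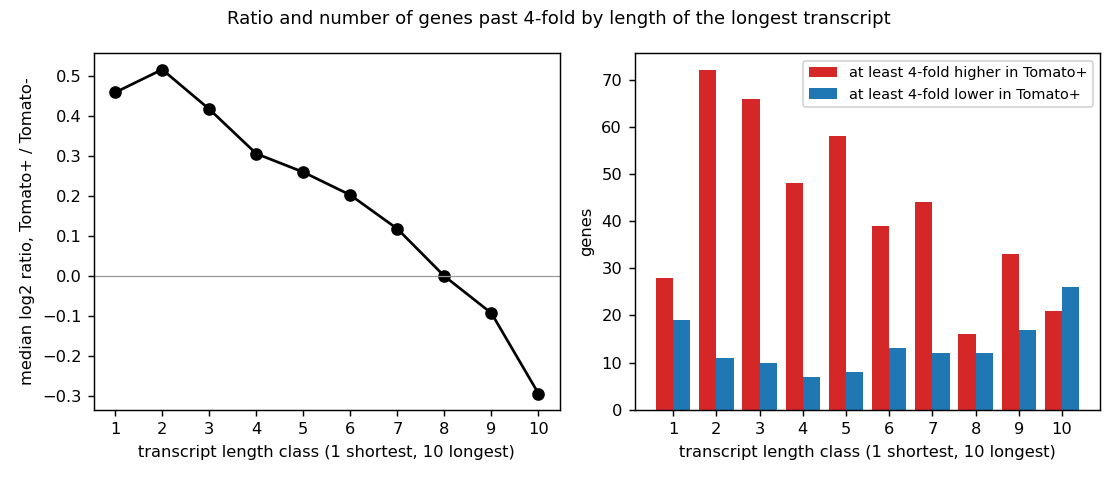
Log2 ratio of Tomato-positive over Tomato-negative OSKM NSC (1 RPKM added) by class of transcript length in bases, for the 10 classes of tested genes. Medians fall from 0.46 and 0.52 in the shortest classes to −0.29 in the longest.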

How the data were processed

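RNA of 7 libraries, 1 per group, was sequenced from a TruSeq RNA v2 kit, per the labels' protocols. The deposited table holds RPKM values per exon made by the authors. The submitters' processing notes list the build mm10 and the tools bedtools, TopHat2 2.0.10, CASAVA 1.8.2 and Bowtie, with no role given, and whether counting used strand is not given in the sources used here. Of 279252 exons 270168 were matched to genes, and a gene's value is the mean RPKM of its exons weighted by length. Ratios are log2 of RPKM plus 1, for genes at 2 RPKM or more in either library. Reads were recovered from the steps of the values (96.3% to 96.5% whole, within 0.01 reads), giving depths of 19 to 58 megareads. Intervals are Clopper-Pearson at 95%, on reads summed over exons of a gene that do not overlap each other, and cover counting error only. They take the summed reads as independent, so a read counted on more than 1 exon would make them too narrow. No test was made, since no group has a replicate, so the count test on recovered reads was not run. Genes named are the 15 highest and 15 lowest (pseudogenes and unnamed gene models left out), up to 5 per list and a fixed panel, plus others stated as chosen after their values were seen or as further list members. The members and the 40 lists were chosen with earlier results of these data known. Alternatives covered the pseudocount, floor, scaling, exon choice and length centring. Scripts were tested on simulated data and used Python 3.11.15, pandas 2.3.3, numpy 2.4.6, scipy 1.17.1 and matplotlib 3.10.9. Some list members are not reported here by name.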

Additional observations from a re-analysis of the deposited data

How the results depend on the processing

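None of the 166 named genes at 2-fold or more changed sign under the alternatives run, and 43 of them fell under 2-fold in at least 1. A pseudocount or floor cannot turn a sign, and the scalings and length centring shifted ratios by less than 2-fold. Only the exon choices could therefore have reversed such a gene, so the lack of reversals is no measure of stability under the other settings. Of the 50 named genes under 2-fold 9 changed sign, as did the medians of 12 of 38 lists under a scaling and the median of all tested genes. With a pseudocount of 0.25 the counts past 4-fold were 658 higher and 222 lower, with 4 they were 172 and 53, and with the highest exon of each gene 901 and 386. Equal summed RPKM gave 262 lower genes and 93 list members at least 2-fold lower. The higher genes with MEF as highest other library numbered 384 at 0.25, 100 at 4 and 466 with the highest exon. The lower genes with brain NSC as highest numbered 176 at equal sums, 128 at 0.25, 36 at 4 and 175 with the highest exon. A floor of 8 RPKM left 106 list members at least 2-fold higher. The span of chromosome medians was 0.189, 0.0570 without a floor and 0.121 after length centring. Length centring, the exclusion of even-exon genes and some further settings were chosen after seeing the data. No paired analysis was possible because each group has 1 library. Depth limits genes near the floor, above all in the Tomato-positive library.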
